A study of Mus musculus with 4 samples.

Results

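The cells described here are the *Myl2* high cardiomyocytes of day 11 gastruloids, 295 cells of the 9584 deposited for that day and of the 31330 in the series. They were taken from the 8730 day 11 cells with at least 2000 UMIs (unique molecular identifiers, each standing for 1 captured RNA molecule) and a mitochondrial share under 20%. A cell counted as a cardiomyocyte when it held at least 30 *Myl7* UMIs per 10000 UMIs and at least 2 UMIs of *Tnni3* plus *Ryr2*, which 1543 cells did. Of these, the 295 held at least 20 *Myl2* UMIs per 10000 and fewer than 3 UMIs of *Mki67* plus *Top2a*, a pair of genes read as a sign of cycling. They made up 19.1% of the cardiomyocytes (exact Clopper-Pearson interval 17.2 to 21.2%) and 3.38% (3.01 to 3.78%) of the cells that passed the limits. The cells were thus chosen by their levels of *Myl2*, *Myl7*, *Tnni3*, *Ryr2*, *Mki67* and *Top2a*, so the values of these genes are descriptions, and the contrasts with other cardiomyocytes of the library are described without a test throughout.

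The study followed gastruloids, aggregates of mouse embryonic stem cells that form embryo-like tissues in culture, at days 4, 5, 6 and 11 to ask which muscle lineages they make. All 4 samples came from the wild-type Zx1 line, grown with a pulse of the Wnt activator Chiron and later with bFGF, VEGF and ascorbic acid. Each day is 1 library of pooled gastruloids from 1 line, so day and library cannot be told apart and individual gastruloids cannot be compared. Since no day was repeated, no test between groups was possible. Intervals have a confidence level of 95% and account for the counting of molecules alone.

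Ventricular muscle pumps blood out of the heart, and its cells differ from atrial and pacemaker cells in the myosin chains, calcium regulators, ion channels and transcription factors that they use. *Myl2* and *Myl3* encode the regulatory and essential light chains of ventricular myosin, whereas *Myl7* and *Myl4* encode the atrial ones, although early cardiomyocytes of every chamber make *Myl7*. The heavy chain gene *Myh7* dominates in the fetal mouse ventricle, and *Myh6* is the chain of the atria and of the adult mouse ventricle. Phospholamban, the product of *Pln*, and sarcolipin, the product of *Sln*, are small membrane proteins that restrain the calcium pump SERCA2 (*Atp2a2*), the former mainly in ventricles and the latter mainly in atria.

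The coding sequences of these calcium pump regulators are shown first, because the summed UMIs of the pair differed in composition between *Myl2* high and low cells. They were read from GENCODE M21 transcripts (GRCm38), with start and stop codons in capitals. Each lies within 1 exon, the second of the 2 of its transcript: *Pln* at chr10:53343864-53344022 on the plus strand (159 bases) and *Sln* at chr9:53853473-53853568 on the plus strand (96 bases).
Pln coding sequence: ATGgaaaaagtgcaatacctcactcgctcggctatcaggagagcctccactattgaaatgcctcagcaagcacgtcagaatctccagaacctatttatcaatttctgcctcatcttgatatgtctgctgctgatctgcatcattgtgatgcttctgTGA
Sln coding sequence: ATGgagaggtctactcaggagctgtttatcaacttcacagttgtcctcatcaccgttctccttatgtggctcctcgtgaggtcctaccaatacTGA

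Promoter sequence is shown for *Myl3*, *Myh7* and *Pln*, the 3 marker genes that were not part of the rule, since they stood high together in the cells. Each run holds the 200 bases before the first annotated start, from the RefSeq windows of GRCm38.p6, 5′ to 3′ on the strand of the gene. The positions are chr9:110763446-110763645 (*Myl3*, plus strand), chr14:54994627-54994826 (*Myh7*, minus strand) and chr10:53337467-53337666 (*Pln*, plus strand). Capitals mark matches, on either strand, to motifs of cardiac factors. The GATA motif was searched as AGATAA, the variant form AGATAG, the further variant TGATAA and the last variant TGATAG. The TEAD motif was spelled CATTCC, and the motif of the T-box factors was spelled AGGTGT. For the homeodomain factor NKX2-5 the letters were TNAAGTG, where N is any base, and for the TATA box of the core promoter they were TATAAA. MEF2 and CArG (serum response factor) motifs were searched as well and are named only.
Myl3 promoter: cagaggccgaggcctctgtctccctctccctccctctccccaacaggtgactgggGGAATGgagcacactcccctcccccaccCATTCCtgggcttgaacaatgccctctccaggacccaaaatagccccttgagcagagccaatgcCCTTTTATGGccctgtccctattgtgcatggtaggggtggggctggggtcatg
Myh7 promoter: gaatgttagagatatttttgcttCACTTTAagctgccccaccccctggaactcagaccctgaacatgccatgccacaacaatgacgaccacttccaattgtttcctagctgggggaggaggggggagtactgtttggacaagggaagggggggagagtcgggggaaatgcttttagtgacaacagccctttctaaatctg
Pln promoter: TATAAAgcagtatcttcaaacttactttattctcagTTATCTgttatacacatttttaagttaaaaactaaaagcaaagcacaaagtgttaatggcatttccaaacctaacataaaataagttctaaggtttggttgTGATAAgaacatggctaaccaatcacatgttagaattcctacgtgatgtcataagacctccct
The *Myl3* run holds a pair of TEAD matches, which begin 145 and 117 bases before the start, and a CArG match that begins 53 bases before it and reads on both strands. A TEAD match was present in 10.1% and a CArG match in 1.18% of the 32851 windows of the same length. The *Myh7* run holds 1 NKX2-5 match, 177 bases before the start, which 7.99% of windows share as a motif. The *Pln* run holds GATA matches at 164 and 63 bases, found in 21.4% of windows, and a TATA match at 200 bases, found in 9.96%. The 200 bases before *Irx4* held none of the 7 motifs, MEF2 (2.29% of windows) and T-box (9.32%) included. A match is a run of letters and no evidence of binding.

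Depth was sufficient for a per-cell account. The 295 cells held 7250172 UMIs, with a median of 19667 per cell (2309 to 84361) and a median mitochondrial share of 3.53%. The 1002 *Myl2* low, non-cycling cardiomyocytes, the nearest comparison, had a median of 17938.5 UMIs. Doublet scores placed 8.81% of the *Myl2* high cells among the 8% of day 11 cells with the highest scores, against 18.75% of the other cardiomyocytes. Day 11 shared 18, 23 and 16 cell barcodes with days 4, 5 and 6, and 1 of the 295 cells was among them. The 10 cardiomyocyte markers (such as *Tnnt2*, *Actc1*, *Ttn* and *Nkx2-5*) were all present and summed to 29967 CPM, where CPM scales the summed UMIs of a gene to 1000000 summed UMIs of the cells. The 11 skeletal muscle markers summed to 22.8 CPM, of which *Acta1* made 18.3, with *Myf5*, *Myod1* and *Chrna1* at 0 UMIs. Endothelial markers summed to 104 CPM, of which *Egfl7* made 85.4, mesenchyme markers to 198, neural markers to 64.8, epicardial markers to 13.2, endoderm markers to 11.3, neural crest markers to 3.17 and blood markers to 1.52. In the other cardiomyocytes these same lists summed to 168.9, 325, 184, 23.3, 37.3, 4.10 and 34.3 CPM in that order, and the skeletal list to 30.8. The cells thus held cardiac transcripts with little of any other class, and whether the small sums touch a result below was not tested.

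The level of *Myl2* ran without a gap across the limit. In the 295 cells it spanned 20.1 to 289 UMIs per 10000 with a median of 57.3. Of the 1002 *Myl2* low non-cycling cells, 635 (63.4%) had no *Myl2* UMI, and the highest held 19.975 per 10000. The 34 cells just under the limit (15 to 20 per 10000) had 2596 CPM of *Myh7*, 2910 of *Myl3* and 821 of *Pln*. The 25 cells just over it (20 to 25) had 1147, 2605 and 537 CPM, lower in all 3. One bin further out (10 to 15, 26 cells) the values were 1832, 2838 and 594 CPM, and one bin further in (25 to 30, 29 cells) they were 2524, 4204 and 906. The markers thus had no step at the limit.

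Myosin light chain *Myl3*, the partner of *Myl2* in the ventricular motor, was among the genes with the largest difference. Per cell its level ran from 0 to 245 UMIs per 10000, with a median of 57.8, against a median of 0.740 (0 to 86.8) in the *Myl2* low non-cycling cells. The ranges overlapped, but only 25 of the 1002 low cells reached the median of the high cells. Summed, *Myl3* (ENSMUSG00000059741) stood at 5891 CPM (5836 to 5948) against 1311 in all 1248 other cardiomyocytes, a ratio of 4.49 (4.43 to 4.55), and at 6.09 times the level of the non-cycling low cells alone. The 1248 other cardiomyocytes include 69 cycling *Myl2* high cells.

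*Myh7* (ENSMUSG00000053093), the slow heavy chain, ran from 0 to 114 UMIs per 10000 with a median of 20.7, against a median of 1.02 (0 to 125) in the non-cycling low cells. Here 61 low cells (6.09%) were at or above the median of the high cells, and the highest low cell exceeded all of them. The summed level was 2526 CPM against 599 in the other cardiomyocytes (ratio 4.21, 4.13 to 4.30). *Pln* (ENSMUSG00000038583) had a median of 10.4 per 10000 (0 to 56.5) against 0.225 (0 to 43.2), and 1116 CPM against 250, a ratio of 4.46 (4.33 to 4.60). The 491 endothelial cells of the library, which should lack these genes, held 8.98 CPM of *Myh7*, 3.80 of *Pln*, 34.0 of *Myl3* and 22.8 of *Myl2* at a median of 22832 UMIs. After each cell was thinned to 5000 UMIs, *Myh7* was found in 91.3% of the *Myl2* high, 47.4% of the low non-cycling and 2.53% of the endothelial cells. The endothelial cells were chosen with under 30 *Myl7* UMIs per 10000, which leaves out cells with more stray cardiac RNA. The part of stray RNA in the share of the low cells was not tested.

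**Figure D1:**
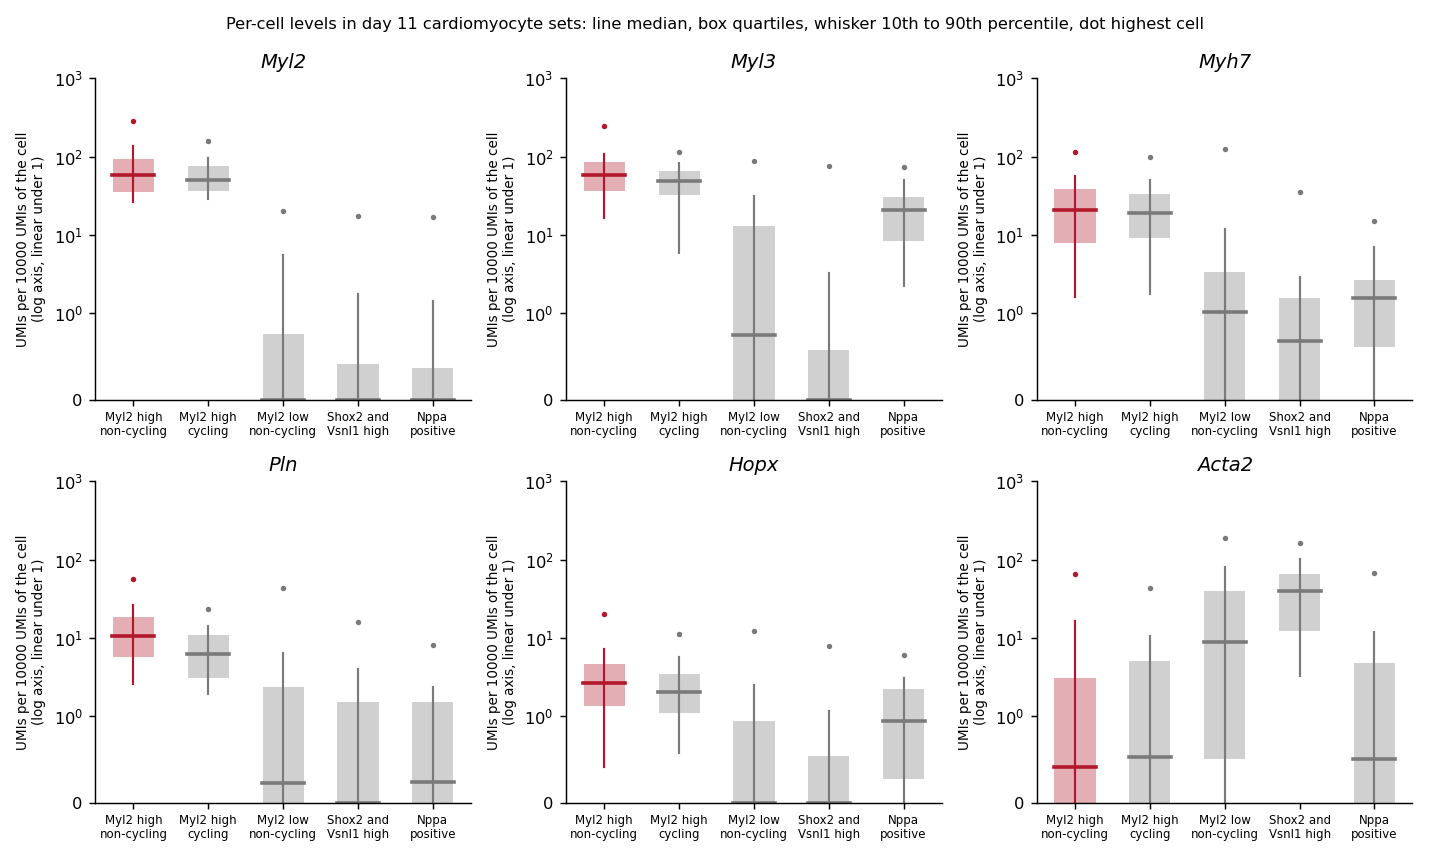
UMIs per 10000 UMIs of the cell (log axis, linear under 1) for 6 genes in 5 sets of day 11 cardiomyocytes; lines are medians, boxes quartiles, whiskers the 10th to 90th percentiles and dots the highest cell. *Myl3*, *Myh7* and *Pln* had medians of 57.8, 20.7 and 10.4 in the 295 *Myl2* high cells (red) and of 0.740, 1.02 and 0.225 in the *Myl2* low non-cycling cells, while *Acta2* had medians of 0.414 and 8.79.

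Among 5666 genes at 20 CPM or more in either set, 37 (0.653%) were at least 2 times higher in the 295 cells than in the other cardiomyocytes and 149 (2.63%) were at most 1/2 as high. The 15 with the largest ratios at 50 CPM or more began with *Myl2*, *Dcpp1*, *Irx4*, *Retreg1* and *Myl3*, followed by *Spink4*, *Pln*, *Mhrt*, *Mpped2*, *Myh7*, *Cited1*, *Mb*, *Hopx*, *Cdh16* and *Kcne1*. *Irx4*, a homeobox factor of ventricular muscle, stood at 55.4 CPM (50.2 to 61.1) against 10.0, a ratio of 5.53 (4.77 to 6.41). *Mb*, which encodes the oxygen store myoglobin, was at 123 CPM against 32.2. *Hopx*, a homeodomain protein of maturing muscle, was at 330 CPM against 101, and *Kcne1*, the beta subunit of a repolarising potassium channel, at 65.1 against 22.1. *Retreg1*, a receptor for autophagy of the endoplasmic reticulum, was at 61.4 CPM against 12.6, and *Spink4*, a secreted protease inhibitor of the Kazal type, at 257 against 57.4. *Cdh16*, a cadherin best known from kidney, was at 54.2 CPM against 16.8.

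Some of these genes need a limit beside them. *Dcpp1* (69.1 CPM against 9.85) was found in 34 of the 295 cells, and 5 cells held 77.4% of its 501 UMIs. It belongs to a family of near-identical genes between which reads may have been split. *Mhrt* is transcribed opposite to *Myh7* from the same locus, and the sources used here do not say that counting used the strand, so its 58.6 CPM against 13.5 may hold *Myh7* reads. *Myh6* and *Myh7* are close paralogs, and how reads that fit both were counted is not given in the sources used here.

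The 15 smallest ratios held 12 cell cycle genes, among them *Mki67*, *Top2a*, *Cdk1* and *Birc5*. The rule fixed that direction, since cycling cells remained in the comparison. Against the non-cycling low cells alone, of the 6 replication and mitosis genes at the level none was past 2-fold either way. The other 3 were *Tagln* (10.3 CPM against 90.4), an actin-binding gene of smooth muscle and the early heart tube, *Vsnl1* (29.2 against 166), a calcium sensor of the sinus node, and *Sln* (37.5 against 182). For this reason the non-cycling low cells are the reference from here on. In that contrast 44 of 5608 genes (0.785%) were at least 2 times higher and 91 (1.62%) at most 1/2 as high.

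Ventricular genes stood out as a list. Of 19 at the level, 12 were at least 2 times higher (*Myl2*, *Myl3*, *Myh7*, *Pln*, *Mpped2*, *Hopx*, *Mb*, *Irx4*, *Hey2*, *Hand1*, *Kcne1* and *Fhl2*), none was at 1/2 or less, and the median log2 ratio was 2.01 against -0.07 over all genes. *Myl2* was fixed by the limit that splits the cells. The list was assembled with results of these data known, so its direction is no independent evidence. *Hey2*, a Notch-related repressor of the compact ventricular wall, was at 34.5 CPM against 4.10 (ratio 8.40, 6.58 to 10.8). *Mpped2*, a metallophosphoesterase, was at 208 against 31.2 (6.68, 6.10 to 7.33), and *Fhl2*, a LIM protein of the Z-disc and nucleus, at 333 against 118 (2.82, 2.67 to 2.99). Other listed genes differed less: the giant sarcomere spring *Ttn* was at 3899 CPM against 3794 and the chaperone *Cryab* at 1409 against 1491.

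Atrial and pacemaker genes pointed the other way only in part. Of 14 atrial genes at the level, 3 were at 1/2 or less and none at 2 or more, with a median log2 ratio of -0.41. The 3 were *Sln* and the orphan receptors *Nr2f1* and *Nr2f2*, which maintain atrial identity: *Nr2f1* stood at 89.4 CPM against 255 and *Nr2f2* at 38.3 against 159 (ratio 0.241, 0.213 to 0.273). By contrast the atrial light chains stayed abundant, *Myl4* at 7097 CPM against 8294 and the rule gene *Myl7* at 12888 against 18882. Of 10 genes of the sinus venosus and pacemaker, 5 were at 1/2 or less, among them *Shox2*, *Hcn4* and *Vsnl1*, with a median log2 ratio of -0.84. *Shox2*, the homeobox factor of the sinus node, was at 120 CPM against 436, and the pacemaker channel *Hcn4* at 27.6 against 93.3. The low cells include 267 that were themselves chosen below as *Shox2* and *Vsnl1* high. Against the 55 *Nppa* positive *Myl2* low cells, 8 pacemaker genes were at the level. None of them was at 1/2 or less or at 2 or more, and the median log2 ratio was -0.14. The low level of this list was thus not particular to the *Myl2* high cells.

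The transcripts of the calcium pump regulators differed in composition when summed. Of the UMIs of *Pln* plus *Sln*, *Pln* made 96.7% (96.3 to 97.1%) in the *Myl2* high cells and 51.7% (50.7 to 52.8%) in the low ones. Per cell, 225 high cells held at least 10 UMIs of the pair, with a median *Pln* share of 100% (10.5 to 100%), and 222 were over 50%. In the low cells 240 held as many, with a median share of 86.8% (0 to 100%), and 141 were over 50%. The medians per cell thus lay closer than the sums. For comparison, *Myl3* made a median of 50.5% of *Myl3* plus *Myl4* per cell in the high cells and 0.898% in the low cells. The 272 *Sln* UMIs of the high cells lay in 21 cells, and 5 of those held 84.6% of them. The pump gene *Atp2a2* was at 873 CPM against 1289 and the release channel *Ryr2*, a rule gene, at 359 against 398. Of 23 calcium handling genes, *Pln* alone was at 2 or more, and *Sln* and the calcium channel *Cacna1d* at 1/2 or less, with a median log2 ratio of 0.01.

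The genes of smooth muscle and immature myocardium were lower as a list, with 11 of 14 at 1/2 or less, none at 2 or more and a median log2 ratio of -1.27. *Acta2*, smooth muscle actin, had a median of 0.414 UMIs per 10000 (0 to 65.5) against 8.79 (0 to 187) and a summed level of 627 CPM against 2521 (ratio 0.249, 0.241 to 0.256). *Tagln* was at 10.3 against 126, the actin binder *Cald1* at 70.6 against 256, and the non-muscle actin *Actb* at 525 against 1377. The composition of actin transcripts differed accordingly: *Acta2* made 5.63% of the UMIs of *Acta2* plus cardiac *Actc1* in the high cells and 22.0% in the low ones. *Actc1* itself was at 10508 CPM against 8959. The low level was not particular to the *Myl2* high cells, since the 55 *Nppa* positive *Myl2* low cells had 421 CPM of *Acta2*, with a median of 0.502 per 10000, and an *Acta2* share of 3.24%. Against them 4 of 13 genes of the list were at 1/2 or less, beside 1.88% of all genes, and none at 2 or more.

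**Figure D2:**
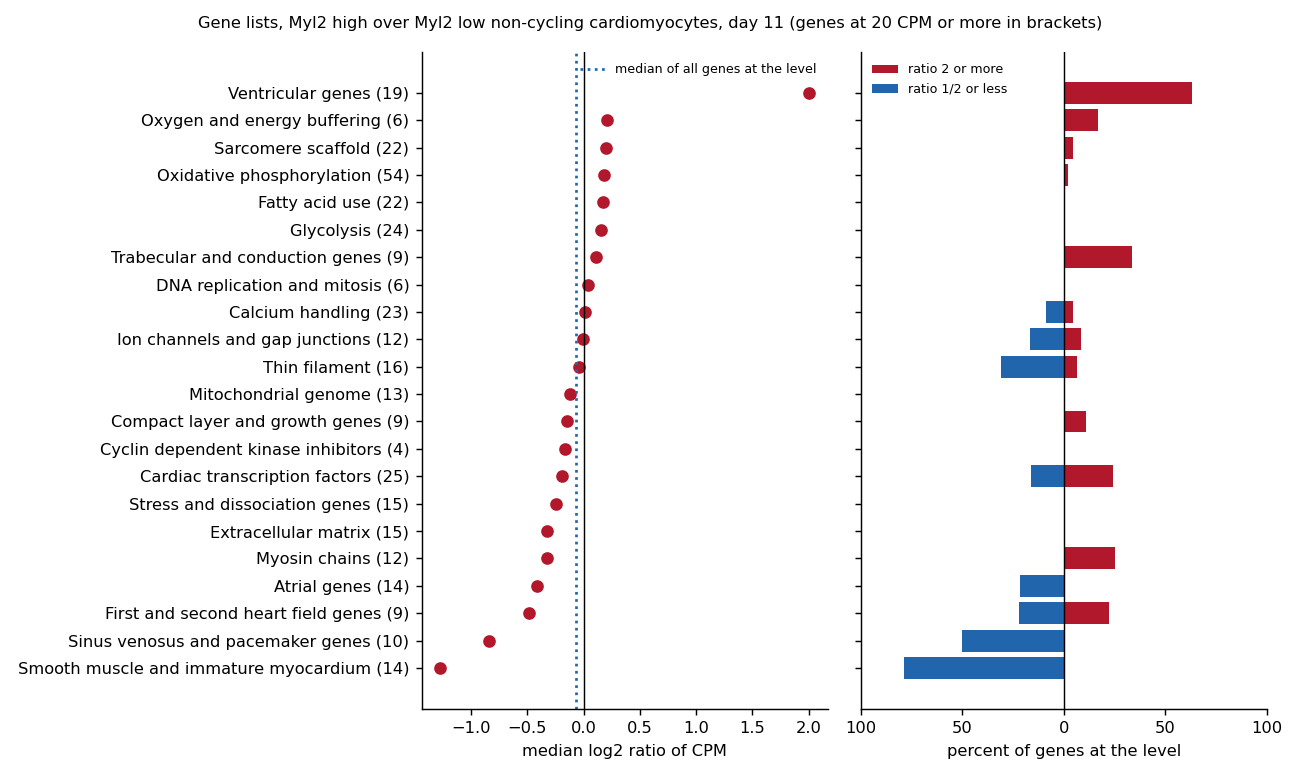
For each gene list, the median log2 ratio of CPM of the *Myl2* high over the *Myl2* low non-cycling cardiomyocytes (left) and the percent of genes at 20 CPM or more with a ratio of 2 or more (red) or of 1/2 or less (blue, right), with the number of such genes in brackets. The ventricular list lies at 2.01 and the smooth muscle list at -1.27, and the dotted line gives the median of all genes (-0.07).

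Contractile genes went both ways, and metabolic genes differed little as groups. In this contrast 0.785% of all genes were at 2 or more and 1.62% at 1/2 or less. Among 12 myosin chains, *Myl2*, *Myl3* and *Myh7* were at 2 or more and none at 1/2 or less (median log2 ratio -0.33), *Myl2* being fixed by the limit. Of 16 thin filament genes the tropomodulin relative *Lmod3* was at 2 or more (31.7 CPM against 13.0), and *Acta2*, *Actb*, *Actg1*, *Tpm2* and *Tpm4* were at 1/2 or less (median -0.04). Of 22 scaffold genes only *Fhl2* passed 2 (median 0.20), and of 12 channel and gap junction genes *Kcne1* was at 2 or more (median -0.00). The mature troponin I gene *Tnni3* made 50.6% of the UMIs of *Tnni1* plus *Tnni3* in the high cells and 48.4% in the low cells, close to each other, although *Tnni3* was a rule gene. Nuclear genes of oxidative phosphorylation were slightly higher in 51 of 54 cases, with a median log2 ratio of 0.18 against -0.07 over all genes. Only *Cox8b*, a muscle form of a cytochrome oxidase subunit, reached 2 (158 CPM against 68.5). The direction depended on the comparison cells. Against the *Shox2* and *Vsnl1* high cells 33 of the 54 were above 1 (median 0.08), and against the *Nppa* positive *Myl2* low cells 22 (median -0.05). Fatty acid use (22 genes, median 0.18) and glycolysis (24 genes, median 0.16) had no gene past either limit. Among 6 genes of oxygen and energy buffering *Mb* alone was at 2 or more (median 0.21). The 13 genes of the mitochondrial genome (median -0.12), 15 matrix genes (-0.33), 15 stress genes (-0.24) and 4 cyclin dependent kinase inhibitors (-0.17) had none past either limit. The 6 replication and mitosis genes had a median of 0.04.

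Transcription factors divided. Of 25 cardiac factors at the level, 6 were at 2 or more (*Hand1*, *Irx3*, *Irx4*, *Irx5*, *Hey2* and *Hopx*) and 4 at 1/2 or less, among them *Nr2f1* and *Nr2f2*, with a median log2 ratio of -0.19. The core factors lay between: *Nkx2-5* was at 168.96 CPM against 128, *Tbx20* at 84.0 against 68.5 and *Gata4* at 32.8 against 43.1. *Irx3* (29.1 CPM against 5.61) and *Irx5* (20.4 against 4.42) counted with *Cited1* as the 3 of 9 trabecular and conduction genes at 2 or more (none at 1/2 or less, median 0.11). *Cited1*, a transcriptional co-activator of the embryonic ventricles, was at 327 CPM against 68.3 (ratio 4.79, 4.49 to 5.11). Of 9 compact layer genes, *Hey2* was the one at 2 or more (median -0.15).

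Markers that separate the left from the right side of the ventricles were sparse in these cells. *Hand1*, a factor of the left ventricle and outer curvature, was at 20.8 CPM against 5.06, and had a UMI in 7.58% of the *Myl2* high cells after thinning to 5000 UMIs, against 2.27% of the low and 0.633% of the endothelial cells. *Tbx5*, a factor of the left ventricle and atria, was lower, at 37.2 against 66.8 (ratio 0.557, 0.488 to 0.635). *Hand2*, needed for the right ventricle and found more widely, was at 81.0 against 99.7. Of 277 thinned *Myl2* high cells, 15 held *Hand1* alone, 82 *Hand2* alone and 6 both. With so few UMIs per cell, the absence of a gene from a cell cannot be read as absence of its expression. Of the 9 first and second heart field genes at the level, *Hand1* and *Cited1* were at 2 or more (median -0.48), and *Bmp4*, a growth factor, was at 28.3 CPM against 91.8.

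The *Myl2* level went with those of the other ventricular genes both inside and outside the limit. From cells with no *Myl2* UMI to cells with 100 to 200 per 10000, *Myl3* ran from 644 to 9363 CPM, *Pln* from 132 to 1538 and *Irx4* from 2.37 to 69.0. Each of the 3 was higher in every successive bin. *Myh7* differed in shape: it stood at 249 and 261 CPM in the 2 lowest bins, at 863 from 2 to 10 per 10000 and at 2297 from 10 to 20, and then stayed between 2200 and 2802 in the bins of 20 to 50, 50 to 100 and 100 to 200. *Cited1* was the reverse, at 62.8 to 71.2 CPM in all 4 bins under the limit and at 190, 371 and 565 in the 3 above it. *Shox2* was at 430 and 513 CPM in the 2 lowest bins and at 50.8 at 100 to 200 per 10000. *Nr2f2* was at 166 CPM without *Myl2* and at 12.7 in that bin, and *Acta2* at 3049 and 369. *Nppa* had no such order, with 159, 74.6 and 227 CPM in the 3 bins above the limit. Only 3 cells held 200 or more.

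**Figure D3:**
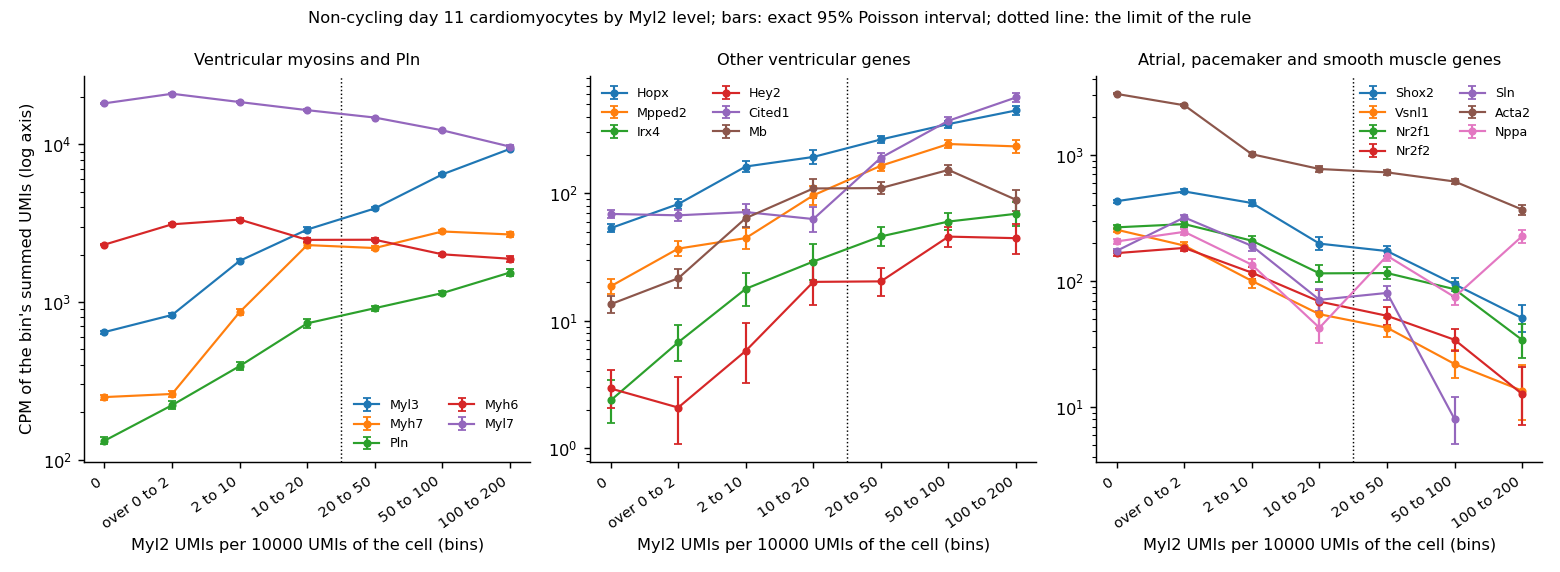
CPM of each bin's summed UMIs (log axis) against the *Myl2* level of the cell, for the non-cycling cardiomyocytes of day 11, with exact Poisson intervals and a dotted line at the limit of 20 per 10000; the bin of 200 or more (3 cells) is left out and *Sln*, at 0 UMIs from 100 to 200, is not drawn there. *Myl3* and *Pln* climb through every bin, *Myh7* is level above 10 per 10000, and *Cited1* climbs only above the limit, from 62.8 CPM at 10 to 20 to 565 at 100 to 200.

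Composition of the myosin heavy chain transcripts varied widely among the 295 cells. *Myh7* made 53.6% of their UMIs of *Myh7* plus *Myh6*, against 14.5% in the low non-cycling cells. Within the 282 *Myl2* high cells with at least 10 such UMIs, the share ran from 0 to 100% with a median of 64.1%, and 179 cells were over 50%. Split by this share, 65 cells lay under 25%, 36 from 25 to 50%, 72 from 50 to 75% and 109 at 75% or more. The bins fix *Myh7* and *Myh6* themselves. Of the rest, *Myl2* differed little, from 5838 CPM in the lowest bin to 7108 in the highest, and *Myl3* was at 3716 and 7565. The atrial light chains were lower at high *Myh7* share, *Myl7* at 20184 CPM in the lowest bin and 7978 in the highest and *Myl4* at 9702 and 5207.

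Like the atrial light chains, *Shox2*, *Acta2* and *Gja5* were lower in the bin of highest *Myh7* share than in the lowest. The sinus node gene *Vsnl1* had 35.9, 75.2, 29.9 and 3.18 CPM from the lowest bin to the highest. *Shox2* stood at 334 CPM in the 65 cells with the lowest *Myh7* share and at 9.94 in the 109 with the highest, and *Acta2* at 1204 and 216. *Gja5*, the connexin of atria and the conduction system, was at 24.1 and 4.37 CPM, and *Hey2* went the other way at 14.7 and 51.7. Other ventricular genes were unlike each other in this respect. *Irx4* (67.7 and 50.1 CPM), *Hopx* (321 and 321) and *Pln* (930 and 1336) differed least between the ends among those named here. *Kcne1* (15.9 and 86.3 CPM), *Mb* (71.8 and 159) and *Mpped2* (142 and 265) were higher at high *Myh7* share, as were *Myl3* and *Hey2*. Some *Myl2* high cells thus held *Myh6*, *Myl7* and *Shox2* beside *Irx4*, *Hopx* and *Pln*. Doublets were left in the set, and their part in this was not tested.

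**Figure D4:**
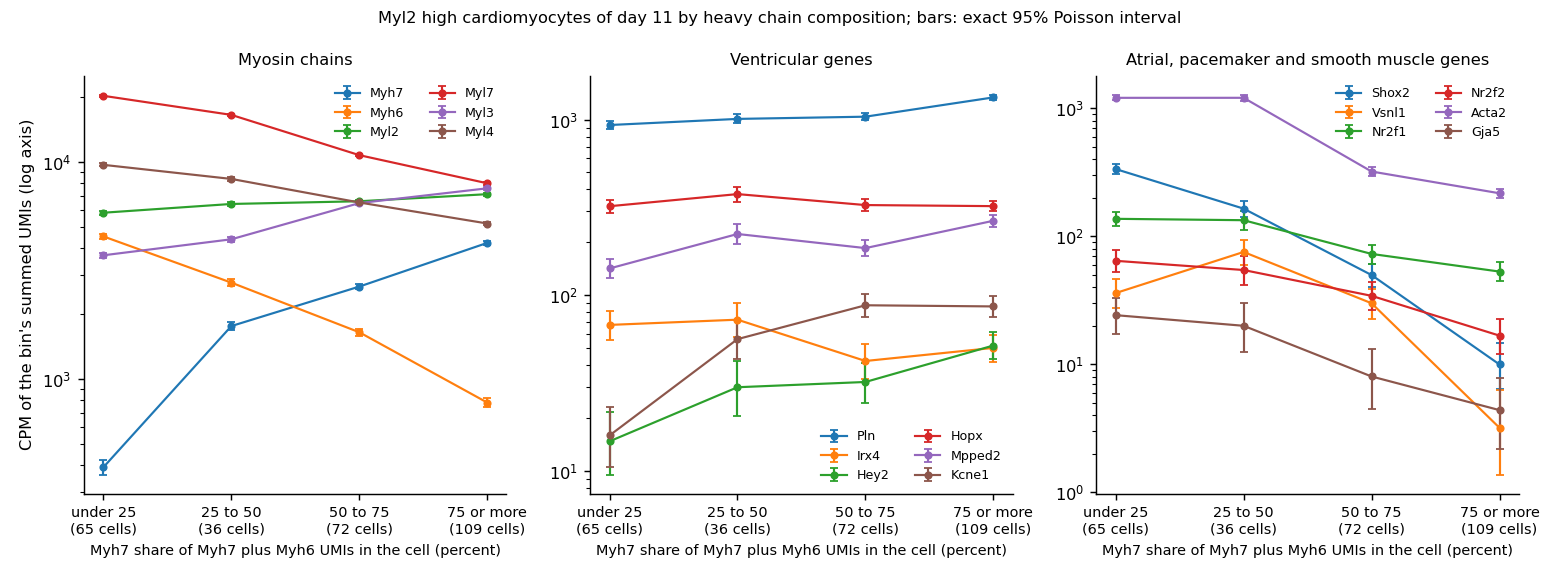
CPM of the summed UMIs (log axis, exact Poisson intervals) in 4 bins of the *Myh7* share of *Myh7* plus *Myh6* UMIs, for the 282 *Myl2* high cells with at least 10 such UMIs. *Myl7* and *Shox2* decline from the lowest to the highest bin (20184 to 7978 and 334 to 9.94 CPM), while *Hopx* is level at 321 at both ends; *Myh7* and *Myh6* are fixed by the bins.

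*Nppa* (ENSMUSG00000041616), the atrial natriuretic peptide of atria and trabeculae, belonged to few of the cells. It was at 137 CPM (129 to 146) against 181 in the other cardiomyocytes, a ratio of 0.756 (0.706 to 0.809). Of its 993 UMIs, 5 cells held 74.6%, and 47 cells held at least 1. The 12 cells with 5 or more per 10000, the limit that also chose the 55 *Nppa* positive *Myl2* low cells, had 2348 CPM, and the other 283 had 13.1. The 12 cells held 1214 CPM of *Myh7* and 4590 of *Myh6*, against 2599 and 2049 in the 283, and *Myl7* at 19914 against 12494. Their *Irx4* was 54.6 CPM against 55.5 and their *Pln* 999 against 1122. Other ventricular genes differed between these cells, with *Kcne1* at 23.4 CPM (9 UMIs, 10.7 to 44.4) against 67.4, *Mpped2* at 112 against 214 and *Mb* at 304 against 112. *Hey2* had 2 UMIs in the 12 cells, 5.20 CPM (0.630 to 18.8) against 36.1. *Nppb* and *Ankrd1*, which often accompany *Nppa*, were at 26.0 against 2.18 and at 348 against 82.0 CPM. *Nppb* had only 10 UMIs in the 12 cells (12.5 to 47.8 CPM). Of all *Ankrd1* UMIs in the 295 cells, 5 cells held 39.3%.

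Of the other genes that varied strongly among the cells, some did so through few cells and some across most of them. After thinning, variance over mean was 24.5 for *Nppa*, 18.5 for *Dcpp1*, 11.7 for *Acta2*, 9.14 for the neuropeptide *Gal* and 4.97 for *Pnmt*, the adrenaline-making enzyme of some early cardiac cells, with a median of 1.05 over 5110 genes. The values of *Malat1* (79.7) and the rule gene *Myl7* (29.9) were larger still, and these were found in 99.6% and 100% of the thinned cells. Before thinning, *Acta2* was found in 161 of the 295 cells. *Gal* was found in 61 of the 295 cells, and 1 cell held 37.7% of its UMIs. *Pnmt* was found in 75, with 33.1% of UMIs in 5 cells.

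The 3 closest sets of cardiomyocytes each differed from the 295 cells in its own way. The 69 cycling *Myl2* high cells had few genes that were lower than in the non-cycling cells: 9 of 5800 genes (0.155%) were at least 2 times higher in the non-cycling cells and 257 (4.43%) at most 1/2 as high. *Myh7* had a ratio of 1.08 (1.05 to 1.11), *Myl3* of 1.25 and *Mpped2* of 1.03, while *Pln* was at 1116 CPM against 747 and *Spink4* at 257 against 140. Lowest at 50 CPM or more in the non-cycling cells were *Hmgb2*, *H2afx* and *Arl6ip1*, at 0.121, 0.173 and 0.185. Highest was *Gal* (3.80), then *Nppa* (3.72), which a few cells carry, *Pnmt* (2.72) and *Hist3h2a* (2.12). Cycling cells made 19.0% (15.1 to 23.4%) of all *Myl2* high and 15.01% (13.0 to 17.2%) of all *Myl2* low cardiomyocytes. They were deeper, at a median of 39127 UMIs, which makes 3 UMIs easier to reach, and 37.7% of the cycling *Myl2* high cells had doublet scores among the highest 8%.

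The 267 *Shox2* and *Vsnl1* high cells (chosen at 10 or more UMIs of the pair per 10000) had the largest share of genes past either limit among the 3 sets. Of 5804 genes, 126 (2.17%) were at least 2 times higher in the *Myl2* high cells and 270 (4.65%) at most 1/2 as high, with a median log2 ratio over all genes of -0.12. The ventricular list had 16 of 19 genes at 2 or more and none at 1/2 or less, *Myl2* being fixed by the choice of cells. *Mpped2* was at 208 CPM against 3.81, *Irx3* at 29.1 against 0.520 and *Myh7* at 2526 against 160. Of 12 pacemaker genes 9 were at 1/2 or less, *Shox2* and *Vsnl1* being fixed by the choice of cells, and *Hcn4* was at 27.6 CPM against 184. *Calca*, the gene of calcitonin and its related peptide, was at 70.1 against 407, and *Csrp2*, a LIM protein of smooth muscle, at 728 against 2733.

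The 55 *Nppa* positive *Myl2* low cells were nearer to the *Myl2* high cells than the low cells as a whole in some markers and farther in others. Their *Myl3* was at 2528 CPM, so the ratio was 2.33 (2.26 to 2.41), and that of *Hopx* was 2.07. By contrast *Myh7* was at 2526 against 248 CPM and *Pln* at 1116 against 94.3, ratios of 10.2 and 11.8. Of 5544 genes, 102 (1.84%) were at least 2 times higher and 104 (1.88%) at most 1/2 as high. Of 16 atrial genes 11 were at 1/2 or less and 1, *Clu*, at 2 or more (median log2 ratio -1.48), *Nppa* being fixed by the choice of cells. Of 19 ventricular genes 12 were at 2 or more and none at 1/2 or less (median 1.44), *Myl2* being fixed likewise. *Casq1*, a calcium-binding protein of the reticulum, was at 185 CPM against 987, *Itga6*, an integrin subunit, at 108 against 360 and *Myh6* at 2184 against 4917. *Shox2* was at 120 against 91.3.

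The contrast could be read again in cells that it did not use, the cycling cardiomyocytes of the same library. There *Myl2* high (69) over *Myl2* low (177) cells gave 48 of 5965 genes (0.805%) at 2 or more and 110 (1.84%) at 1/2 or less. Of the 43 genes other than *Myl2* that were at 2 or more in the non-cycling cells, 40 were at the level, 32 were at 2 or more again (80.0% of these and 68.1% of the 47 so called in the cycling cells) and none was at 1/2 or less. The same 12 ventricular genes were at 2 or more, of which *Myl2* was fixed by the limit that splits the cells. Of the 91 lower genes, 31 of 72 at the level were at 1/2 or less again and none at 2 or more. *Irx4* had a ratio of 7.08 (5.10 to 9.94), *Hey2* of 9.96 (6.70 to 15.2) and *Myh7* of 6.00 (5.76 to 6.26). The cells share a library and a *Myl2* limit, so this is no replicate.

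**Figure D5:**
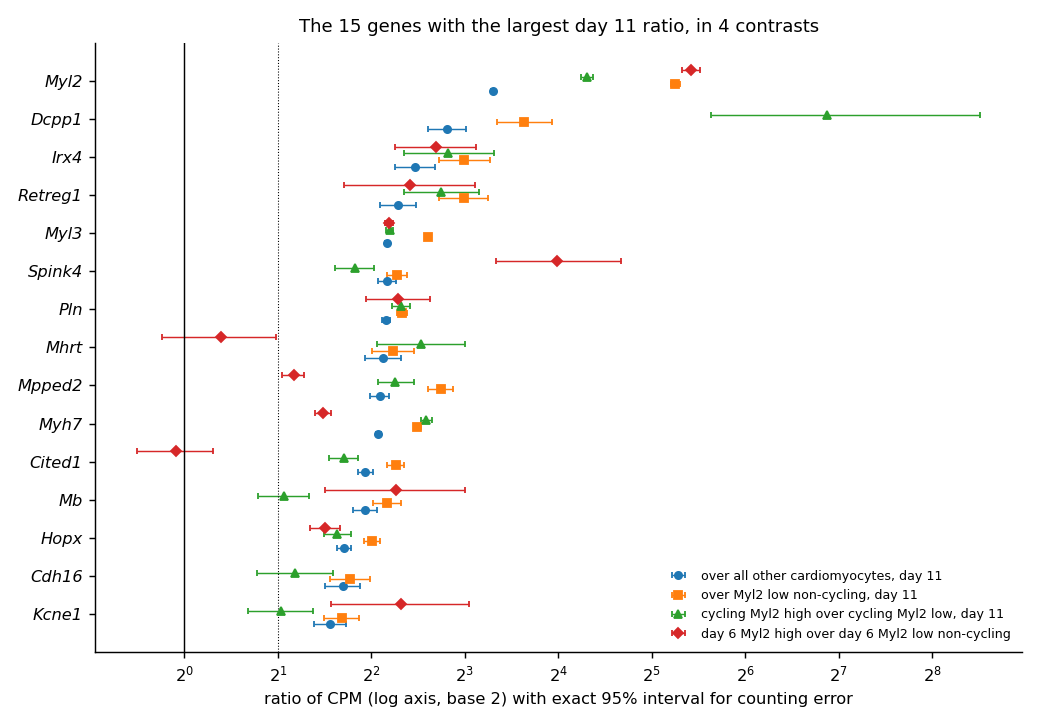
Ratios of CPM (log axis, base 2) with exact intervals for the 15 genes with the largest day 11 ratio, in 4 contrasts of *Myl2* high over other cardiomyocytes. The comparison cells are *Myl2* low, except that all other day 11 cardiomyocytes include the 69 cycling *Myl2* high cells. *Dcpp1* and *Cdh16*, under 20 CPM in both day 6 sets, have no day 6 point. Every gene drawn lies at 2 or more in the 3 day 11 contrasts, while *Cited1* (0.941) and *Mhrt* (1.31) are near 1 at day 6. The genes were chosen by the contrast with all other day 11 cardiomyocytes, which fixes their place there. The contrast with non-cycling low cells shares its cells, and *Myl2* is fixed by the limit in every contrast.

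Earlier days held few such cells. No cell of day 4 or 5 passed the cardiomyocyte limits. At day 6, 416 did, and 32 of them (7.69%, 5.32 to 10.7%) met the whole rule, at a median of 28459.5 UMIs. Their *Myl2* was 5358 CPM and their *Myl3* 6131 CPM, beside 6585 and 5891 at day 11. *Myh7* was lower at 1551 CPM, and *Pln* was at 125 beside 1116, *Mb* at 27.0 beside 123 and *Hey2* at 2.08 beside 34.5. *Mpped2* (792 beside 208), *Irx1* (79.05 beside 13.2) and *Acta2* (4945 beside 627) were higher at day 6. Between the 2 sets 448 of 5893 genes (7.6%) were at least 2 times higher at day 11 and 537 (9.11%) at most 1/2 as high. Day, library, depth and software version differ together, so these values stand side by side and no more.

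Within day 6, the 32 cells over the 291 *Myl2* low non-cycling ones gave 292 of 5957 genes (4.9%) at 2 or more and 343 (5.76%) at 1/2 or less. Of the 43 higher day 11 genes, 32 were at the level at day 6, 21 were at 2 or more (65.6% of these and 7.22% of the 291 called there) and 1, *Hand1*, was at 1/2 or less. *Hand1* was at 15.6 CPM against 90.9 at day 6 (ratio 0.172, 0.0955 to 0.285), whereas it had a ratio of 4.12 (3.20 to 5.31) at day 11. *Cited1* had a ratio of 0.941 (0.706 to 1.23). Day 6 differed from day 11 in what *Myl2* went with: *Tnni3* made 42.5% of *Tnni1* plus *Tnni3* in the 32 cells and 18.7% in the low cells, while *Myh7* made 50.5% and 50.4% of the heavy chain pair. *Tnni3* was a rule gene, so the choice of cells bears on its share in both sets. The heavy chain share thus separated *Myl2* high from low cells at day 11 (53.6% and 14.5%) and not at day 6. *Myh7* and *Myh6* themselves were both at 2 or more in the 32 cells over the low cells of day 6. *Acta2* was at 4945 CPM against 4928 at day 6, but its share of *Acta2* plus *Actc1* UMIs was 27.4% in the 32 cells and 44.2% in the low cells. Of 14 genes of smooth muscle and immature myocardium, 8 were at 1/2 or less there and 1 at 2 or more. The 32 cells had a median mitochondrial share of 6.24% against 3.26% in the low cells of day 6, and its part in these values was not tested.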

How the data were processed

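Single-cell RNA-seq of pooled mouse gastruloids at days 4, 5, 6 and 11 was used, with 1 library of the 10x Chromium 3′ kit per day. The deposited matrices hold UMI counts per gene and cell, which the authors made with Cell Ranger (version 3.1.0 and genome mm10 per the submitters' processing notes; the day 11 matrix header names 6.0.1, the other headers 3.1.0). How reads shared between genes were counted is not given in the sources used here. Library totals were 227398362, 236714826, 182150138 and 149169498 UMIs in the order of days.

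UMIs were summed over the cells of each set and scaled to CPM. Intervals at 95% were exact Poisson for CPM, exact Clopper-Pearson for shares and exact conditional binomial for ratios of CPM. PCR duplicates are removed by UMIs, so they cover the counting of molecules only. Genes were compared at 20 CPM or more in either set, and a ratio of 2 or more or of 1/2 or less was counted as higher or lower, with no test. For shares of cells with a UMI, cells were thinned to 5000 UMIs, which left out 18 of 295 *Myl2* high, 75 of 1002 *Myl2* low non-cycling and 17 of 491 endothelial cells. Unthinned, *Myh7* was found in 98.0% and *Hand1* in 30.2% of the *Myl2* high cells. Doublets were scored against simulated pairs with 2000 variable genes and 30 principal components, and were left in. Named genes were those of the rule, the gene lists, the 15 largest and 15 smallest ratios at 50 CPM or more against the other cardiomyocytes, and the 10 largest and smallest against each of the 3 closest sets, without mitochondrial and ribosomal protein genes. Genes that varied strongly among the cells were named after their values were seen. The cells, lists and comparisons were chosen with earlier results of these data known. The calculations were tested on simulated data and used python 3.11.15, numpy 2.4.6, scipy 1.17.1, scikit-learn 1.9.0 and matplotlib 3.10.9. Alternatives changed the limits on cells, the *Myl2* limit, doublets, comparison cells, scaling, depth and the filter on low genes. Some genes of the lists are not reported here.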

Additional observations from a re-analysis of the deposited data

How the results depend on the processing

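Of the 17 genes named for large ratios, all stayed at 2 or more under the 8 alternatives tried on them. They were chosen by their ratios in these same cells, and *Myl2* was fixed by the rule. With a *Myl2* limit of 10 the share of *Myl2* high cells among cardiomyocytes was 23.0%, the *Myh7* ratio 4.71 and the *Nppa* ratio 0.654, and with a limit of 40 they were 13.2%, 3.88 and 0.597. Without the highest doublet scores the *Myh7* ratio was 4.11 and the *Nppa* ratio 0.669. Against only the *Myl2* low non-cycling cells, 91 genes were at 1/2 or less, the *Myh7* ratio was 5.62 and the *Nppa* ratio 0.691. There 5 of the 17 genes named for small ratios stayed at 1/2 or less, while all 17 did under the other alternatives tried on them. In that comparison 7 cell cycle genes turned to ratios above 1, since the cycling cells had left the comparison: *Birc5* 1.57, *Cdca8* 1.37, *Cdk1* 1.37, *Cenpf* 1.52, *Pclaf* 1.53, *Prc1* 1.06 and *Ube2c* 1.84. With per-cell CPM values averaged in place of summed UMIs, 57 genes were at 2 or more, the *Myh7* ratio was 4.68 and the *Nppa* ratio 0.851. After thinning, 63 genes were at 2 or more and the *Myh7* ratio was 4.62. With genes at 5 CPM or more, 92 were higher and 517 lower, and at 100 CPM or more, 14 and 33. Without the 12 cells at the *Nppa* limit, an alternative chosen after seeing the data, the *Nppa* ratio was 0.0724, a value fixed by the choice, since cells high in *Nppa* left the *Myl2* high side only. No paired analysis was possible because each day is 1 library and no result comes from a test. The limits are those of 1 library: cells are not replicates, and the counts of genes past a ratio of 2 moved with the filter, the scaling and the depth.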
